A study of Drosophila melanogaster with 9 samples.

Results

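The genes described here encode cuticle proteins that bind chitin, and they were taken from the table of raw counts by their symbols. A row was a member when its symbol began with Cpr or Lcp followed by a digit, or with Ccp84A or Acp65A. This gave 93 of 16492 symbols, of which 69 were *Cpr* genes, 16 *Lcp* genes, 7 *Ccp84A* genes and 1 the gene *Acp65Aa*. The RNA came from wing imaginal discs of *Drosophila melanogaster* larvae at the wandering stage of the last instar, dissociated and sorted for the GFP that marks the *dpp* domain. STAT supercompetitors (hop 1 to hop 3) carried w/+; +/+; dpp-gal4, uas-gfp/uas-hop and misexpressed *hop*, which encodes the Janus kinase of the JAK/STAT pathway. Myc supercompetitors (Myc 1 to Myc 3) carried w/+; +/+; dpp-gal4, uas-gfp/uas-myc and misexpressed *Myc*. Control cells (gfp 1 to gfp 3) carried w/+; +/+; dpp-gal4, uas-gfp/+ and expressed GFP alone. The *dpp-gal4* driver and *uas-gfp* were thus common to all 3 genotypes, so each transgene acted only where and while this driver was active, in a stripe along the anterior midline of the disc. Each library pooled the cells of at least 60 discs, and spread between animals cannot be read from it. The labels call these libraries triplicates but do not say that the larvae came from separate cultures, so p-values measure the spread between libraries, which may be technical.

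Insect cuticle is a matrix of chitin fibers and proteins secreted by the epidermis at its apical face. Most structural cuticle proteins of arthropods belong to the CPR family, whose members carry the Rebers and Riddiford consensus, a stretch that binds chitin. In *Drosophila* many of these genes stand in tandem arrays, and each array is used at particular molts and in particular parts of the body. *Lcp* genes were named after larval cuticle proteins, *Acp65Aa* after an adult cuticle protein, and *Ccp84A* genes after their cluster at 84A. The wing disc is an epidermal primordium that lays down pupal and adult cuticle only after the stage sampled here. RNA levels in pooled cells cannot tell fewer cells of a type from less RNA per cell.

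The libraries held 5110634 to 6104490 counts each, and cuticle genes accounted for 1954 to 3285 of them. The misexpressed genes were high in the libraries labelled for them. *hop* stood at 1140 to 1430 CPM (counts scaled to a common library size) in hop libraries and at 62.6 to 80.0 CPM in gfp libraries, and *dm*, the *Myc* gene of flies, at 538 to 774 CPM in Myc libraries and 233 to 259 CPM in gfp libraries. In hop libraries *dm* stood at 280 to 351 CPM, above gfp and below Myc. Wing disc genes such as *ci*, *ap* and *bi* were well expressed in each genotype (*bi* averaged 562.3 CPM in hop, 485.0 CPM in Myc and 569.2 CPM in gfp). On the first principal component of all genes, scaled to 1 at the mean of hop and 0 at the mean of gfp, 2 libraries stood apart from their groups. Myc 1 lay at 0.759, while Myc 2 and Myc 3 lay at -0.234 and -0.0575. The library gfp 1 lay at 0.222, while gfp 2 and gfp 3 lay at -0.0968 and -0.126. Counts of called genes without Myc 1 and gfp 1 are given beside each comparison.

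Cuticle genes were expressed at low levels in sorted disc cells of all 3 genotypes. Of the 93 genes, 89 had at least 1 count in some library and 72 had enough counts to be tested. The tested cuticle genes had a median level of 3.96 CPM over the 9 libraries, against 13.3 CPM for all 12741 genes tested. Only 9 of them averaged 10 CPM or more, 39 lay between 3 and 10 CPM and 24 between 1 and 3 CPM. The 9 highest, *Cpr97Eb*, *Cpr49Ah*, *Cpr64Aa*, *Cpr97Ea*, *Cpr78Cb*, *Cpr49Ac*, *Cpr11A*, *Cpr51A* and *Cpr73D*, held 41.8% of the CPM of the whole family. The 21 genes that were not tested had 624 counts together, with at most 69 for a gene over all libraries. No count was found for *Cpr67Fb*, *Cpr65Ax1*, *Cpr65Ax2* and *Lcp65Ab2*, which in each library allows up to 3 counts, provided that their reads could be counted. *Cpr67Fb* shares 389 of its 457 exon bases with the antisense gene *asRNA:CR45171*, so its reads may have been dropped or given to that gene. Some members have near-identical copies in the family (*Cpr65Ax1* and *Cpr65Ax2*, *Lcp65Ab1* and *Lcp65Ab2*, the *Lcp65Ag* genes, *Lcp1*, *Lcp2* and the pseudogene beside them), and their counts are uncertain, because reads that fit several copies may have been split or dropped.

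To compare genes with each other, CPM was divided by the annotated exon length in kilobases (RPKM). In control cells *Cpr97Eb* had the highest level with 29.5 ± 8.0 RPKM (SD, n = 3), followed by *Cpr64Aa* with 22.6 ± 3.04 RPKM and *Cpr64Ab* with 19.6 ± 8.98 RPKM. The genes at ranks 4 to 10 lay between 12 and 18 RPKM. In each of the 9 neighboring pairs among these 10 genes the gap was smaller than the larger SD of the pair, so the order of neighbors is not resolved. In STAT supercompetitors *Cpr49Ah* had the highest level with 65.1 ± 9.93 RPKM, ahead of *Cpr97Eb* with 39.8 ± 14.7 RPKM. In Myc supercompetitors *Cpr64Aa* came first with 44.8 ± 12.6 RPKM, ahead of *Cpr97Eb* with 30.2 ± 19.2 RPKM.

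In STAT supercompetitors 1 cuticle gene rose and 3 fell relative to control cells. *Cpr49Ah* rose, while *Lcp65Ae*, *Cpr47Ee* and *Cpr65Aw* fell (edgeR quasi-likelihood test, Benjamini-Hochberg adjusted p under 0.05). These are 1.39% and 4.17% of the 72 genes tested, against 3.16% of all tested genes called higher and 3.37% called lower. Most other members lay below 0 without passing the test. The median log2 fold change of the tested cuticle genes was -0.52, against -0.02 for all tested genes and -0.23 for the 5407 tested genes of 1 to 10 CPM. Of the 72 genes 52 had a log2 fold change below 0 (72.2%), against 51.6% of all tested genes and 62.5% of those of 1 to 10 CPM. The hop libraries lay wholly below the gfp libraries for 20 cuticle genes and wholly above them for 3, *Cpr49Ah*, *Cpr11A* and *Cpr12A* (the last named after its values were seen). Over all tested genes 16.5% lay wholly below and 14.8% wholly above. Among genes of 1 to 10 CPM 3.27% were called lower and 1.2% higher, and 20.7% lay wholly below and 8.17% wholly above, while of the 63 cuticle genes of this range 3 were called lower, 19 lay wholly below and 1 wholly above. A gene at low level enters the test more readily when 1 group holds most of its counts, so these shares describe the genes that passed the filter.

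*Cpr49Ah* encodes a CPR family protein and lies at the distal end of the 49A array (chromosome arm 2R, bases 12413962 to 12415170 of BDGP6, plus strand). It stood at 55.0, 63.6 and 74.6 CPM in hop 1 to hop 3, at 13.4, 15.2 and 9.45 CPM in the Myc libraries, and at 11, 14.1 and 12.9 CPM in the gfp libraries. Every hop library was above every other library, and the Myc and gfp libraries overlapped. The log2 fold change of hop against gfp was 2.35 ± 0.22 (SE), 5.08-fold, with an adjusted p of 2.9e-05. With each library left out in turn it stayed between 2.25 and 2.48, with an adjusted p of at most 0.000805. *Cpr49Ah* made up 9.15%, 14.7% and 16.6% of the summed CPM of all cuticle genes in the hop libraries and 1.94% to 3.68% in the Myc and gfp libraries.

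**Figure D1:**
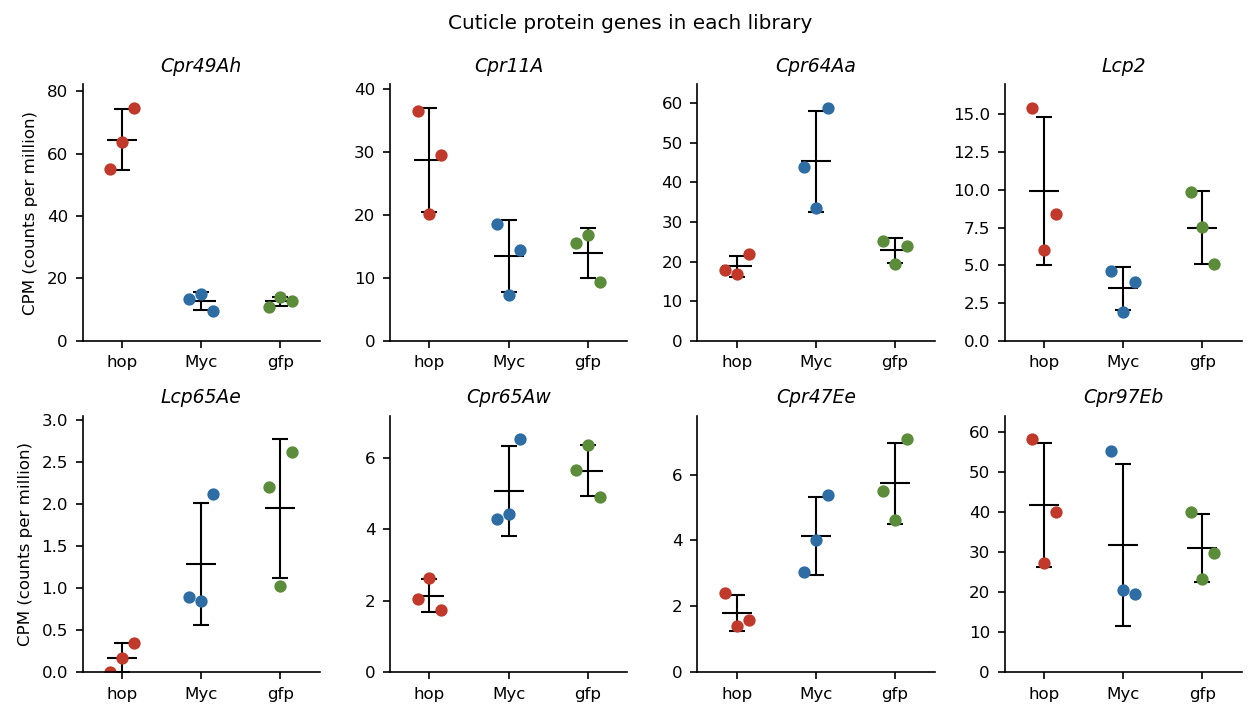
CPM of 8 cuticle genes in each library (points), with the mean and SD of the 3 libraries of each genotype (bars) and each y axis starting at 0. *Cpr49Ah* in the hop libraries (55.0 to 74.6 CPM) and *Cpr64Aa* in the Myc libraries (33.5 to 58.8 CPM) stand above the others, while *Lcp65Ae*, *Cpr65Aw* and *Cpr47Ee* are lowest in the hop libraries.

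The 3 genes that fell were lowly expressed in every genotype. *Lcp65Ae*, a gene of the 65A array, had 0, 1 and 2 counts in the hop libraries, 5, 4 and 13 counts in the Myc libraries, and 12, 6 and 17 counts in the gfp libraries. All hop libraries lay below all others. The ratio of hop to gfp in counts pooled over the group and scaled by library size was 0.0911 (95% Clopper-Pearson interval 0.0179 to 0.289, counting error only, since reads carried no molecular identifiers), from 3 counts against 35. The fitted log2 fold change was -3.30 ± 0.90 with an adjusted p of 0.0382. *Cpr65Aw*, of the same array, stood at 2.05, 2.65 and 1.75 CPM in the hop libraries, 4.29, 4.43 and 6.52 CPM in the Myc libraries, and 5.67, 6.35 and 4.92 CPM in the gfp libraries. Its hop libraries were below both other groups, and its log2 fold change against gfp was -1.38 ± 0.39, 2.61-fold lower (adjusted p = 0.045). *Cpr47Ee*, a gene of the 47E array, stood at 2.42, 1.41 and 1.58 CPM in the hop libraries, 3.04, 4.01 and 5.38 CPM in the Myc libraries, and 5.49, 4.63 and 7.07 CPM in the gfp libraries. The hop libraries were again below both other groups, with a log2 fold change of -1.66 ± 0.43 against gfp, 3.17-fold lower (adjusted p = 0.0308).

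The count of 3 lower genes changed with each library left out, as the calls over all genes did. It came to 0 without hop 2, hop 3, gfp 1, gfp 2 or gfp 3, to 7 without Myc 1 (all 3 among them) and to 5 without Myc 1 and gfp 1 together, which then included *Cpr47Ee* and *Lcp65Ae* but not *Cpr65Aw*. Over all genes, 3.37% were called lower with all libraries, 0.516% to 2.11% without one of those hop or gfp libraries, 6.57% without Myc 1 and 6.35% without Myc 1 and gfp 1. Without hop 1, *Cpr47Ee* kept its call and *Cpr47Ef*, *Cpr76Bd* and *Lcp65Ad* were called in place of the others. Without Myc 2 or Myc 3, *Cpr47Ee* and *Lcp65Ae* were called. In these runs 2.22%, 3.11% and 3.21% of all tested genes were called lower. Without a single library the log2 fold change of *Lcp65Ae* lay between -4.11 and -2.76, that of *Cpr65Aw* between -1.52 and -1.23 and that of *Cpr47Ee* between -1.90 and -1.46.

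*Cpr11A*, an X-linked CPR gene, came next to *Cpr49Ah* in direction. It stood at 36.6, 20.1 and 29.6 CPM in the hop libraries, 18.6, 7.38 and 14.5 CPM in the Myc libraries and 15.6, 16.8 and 9.37 CPM in the gfp libraries. The hop libraries lay above both other groups, and the log2 fold change of hop against gfp was 1.05 ± 0.33 with an adjusted p of 0.0646. It passed the threshold with DESeq2, with no filter on low counts, with only the 6 libraries compared, without hop 2, Myc 1 or Myc 2, and without Myc 1 and gfp 1 together. The highest members otherwise showed no called difference. *Cpr97Eb* had a log2 fold change of 0.43 ± 0.42 and *Cpr97Ea* one of 0.47 ± 0.36 (adjusted p = 0.571 and 0.45), *Cpr49Ac* of -0.19 ± 0.28, *Cpr51A* of 0.02 ± 0.34 and *Cpr73D* of -0.02 ± 0.26. *Cpr73D* shares 294 exon bases with *Ogdh*, and its reads differed between the deposited tables (65 raw counts and 110 recovered from the normalized table in hop 1, 79 and 134 in gfp 3), so its level is uncertain. *Cpr78Cb* stood at 20.6, 19.6 and 16.1 CPM in the hop libraries and 30.2, 29.4 and 27.8 CPM in the gfp libraries, which did not overlap, and its log2 fold change of -0.63 ± 0.21 had an adjusted p of 0.0823.

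**Figure D2:**
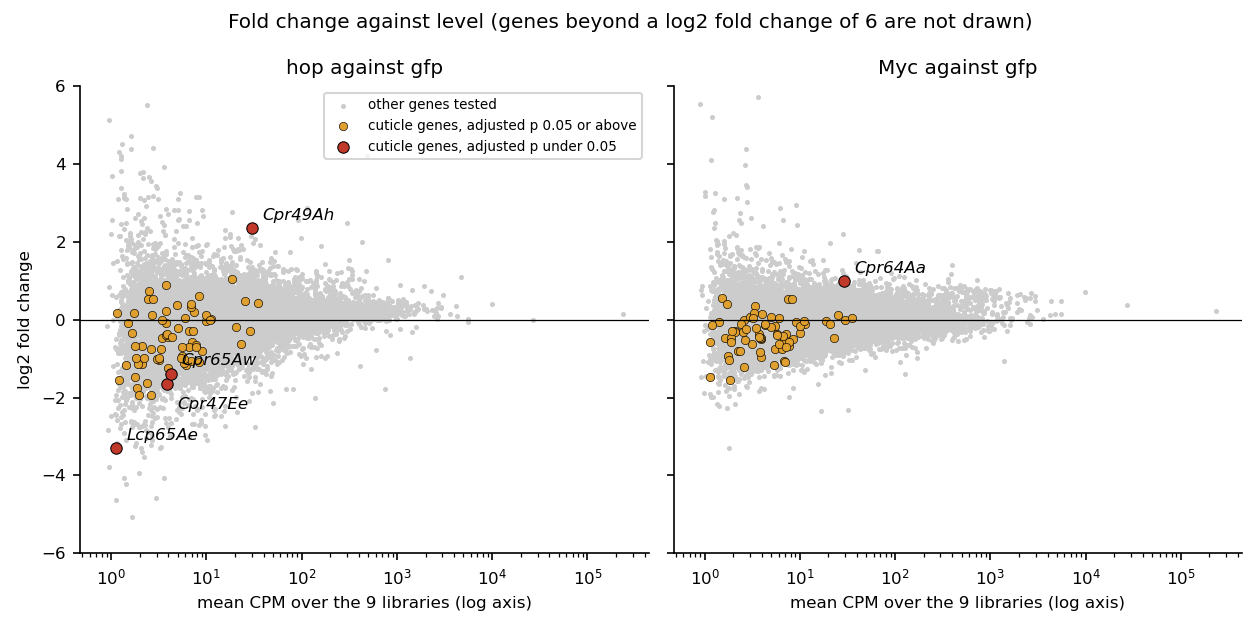
Log2 fold change against mean CPM over the 9 libraries (log axis) for all 12741 genes tested (gray) and the 72 tested cuticle genes (orange, or red at an adjusted p under 0.05), for hop against gfp and Myc against gfp. Most cuticle genes lie below 10 CPM and below 0 in both panels, and 4 genes are called in hop against gfp and 1 in Myc against gfp.

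In Myc supercompetitors 1 cuticle gene rose and none was called lower relative to control cells, against 2.35% and 0.502% of all tested genes and 0.333% and 0.129% of those of 1 to 10 CPM. At an unadjusted p under 0.05, 6 of the 72 cuticle genes were lower and 1 higher. At the same cutoff 786 of all 12741 tested genes were lower and 1007 higher. Of the 5407 tested genes of 1 to 10 CPM, 234 were lower and 163 higher. DESeq2 also called none lower, but it gave an adjusted p for only 26 of the 72 genes in this comparison and none for the other 46, so its count says little. The gene that rose was *Cpr64Aa* (arm 3L, bases 4207838 to 4209178, minus strand). It stood at 43.8, 33.5 and 58.8 CPM in the Myc libraries and at 25.2, 19.4 and 24 CPM in the gfp libraries, with 17.9, 16.8 and 21.9 CPM in the hop libraries. All Myc libraries lay above all others. The log2 fold change of Myc against gfp was 0.99 ± 0.22, 1.99-fold, with an adjusted p of 0.0209. Without Myc 3, gfp 1, gfp 2 or gfp 3 it no longer passed, with log2 fold changes from 0.76 to 1.18 over all single libraries left out, and it passed without Myc 1 and gfp 1 together. *Cpr64Aa* lies within *CG43367* on the opposite strand and shares no exon bases with it, and the log2 fold change of *CG43367* itself was 0.12 ± 0.14 (adjusted p = 0.8).

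The 3 neighbors of *Cpr64Aa* did not rise with it. In Myc and gfp libraries *Cpr64Ab* averaged 8.56 ± 1.65 and 10.8 ± 4.96 CPM and *Cpr64Ac* 8.93 ± 0.615 and 10 ± 0.487 CPM (SD, n = 3 each), with log2 fold changes of -0.33 and -0.17, and *Cpr64Ad* had one of -0.75. Over all 72 tested genes the median log2 fold change of Myc against gfp was -0.34, against -0.04 for all tested genes and -0.12 for those of 1 to 10 CPM. A value below 0 was found for 58 genes (80.6%), against 54.1% of all tested genes and 60.0% of those of 1 to 10 CPM. For 14 cuticle genes the Myc libraries lay wholly below the gfp libraries, and for 1, *Cpr64Aa*, wholly above, against 10.4% and 10.8% of all tested genes and 9.77% and 4.85% of those of 1 to 10 CPM. Both comparisons share the gfp libraries, so their values are not independent of each other.

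Set directly against each other, STAT and Myc supercompetitors differed in 4 cuticle genes, 3 higher and 1 lower in hop, where 3.35% and 3.19% of all tested genes were called, and 0.777% and 2.48% of those of 1 to 10 CPM. The hop libraries lay wholly above the Myc libraries for 6 cuticle genes and wholly below for 11, against 11.4% and 13.1% of all tested genes and 7.45% and 11.7% of those of 1 to 10 CPM. The median log2 fold change of the cuticle genes was -0.20, against -0.02 for all tested genes and -0.11 for those of 1 to 10 CPM. Below 0 were 41 of 72 (56.9%), against 51.6% of all tested genes and 56.4% of those of 1 to 10 CPM. *Cpr49Ah* was 5.10-fold higher in hop (log2 fold change 2.35 ± 0.22, adjusted p = 2.44e-05), and *Cpr64Aa* was 2.41-fold lower (-1.27 ± 0.23, adjusted p = 0.00407). Both calls held with each single library left out. The others called higher were *Lcp2*, a larval cuticle protein gene, and *Lcp1Psi-RA*. *Lcp1Psi-RA* was not matched in the annotation, but the normalized table holds the same reads in all 9 libraries for *Lcp1Psi*, a pseudogene of this family. *Lcp2* stood at 15.4, 6.0 and 8.41 CPM in the hop libraries, 4.65, 1.90 and 3.91 CPM in the Myc libraries and 9.88, 7.55 and 5.07 CPM in the gfp libraries. The Myc libraries lay below both other groups, and hop and gfp overlapped. The log2 fold change of hop against Myc was 1.49 ± 0.43 (adjusted p = 0.0484) and that of Myc against gfp -1.08 ± 0.43 (adjusted p = 0.254). *Lcp1Psi-RA* stood at 13.0, 7.06 and 8.41 CPM in the hop libraries, 4.82, 2.11 and 3.75 CPM in the Myc libraries and 9.51, 5.66 and 7.53 CPM in the gfp libraries, with a log2 fold change of hop against Myc of 1.39 ± 0.38 (adjusted p = 0.0398). Its groups were ordered as those of *Lcp2*, from which its reads may not be separable.

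Both *Lcp* symbols lay close to the threshold. *Lcp2* lost its call without hop 1, hop 3, Myc 2, Myc 3 or any gfp library, and *Lcp1Psi-RA* without hop 1, hop 3, Myc 2, Myc 3, gfp 2 or gfp 3. With each library left out the log2 fold change stayed between 1.04 and 1.77 for *Lcp2* and between 1.11 and 1.68 for *Lcp1Psi-RA*. Without Myc 1 alone, and likewise without Myc 1 and gfp 1, 7 cuticle genes were called higher in hop than in Myc. These added *Cpr11A*, *Cpr97Ea*, *Cpr97Eb* and *Lcp3*. The count called lower came to 6 without Myc 1 and to 5 without both, *Cpr64Aa*, *Cpr65Aw* and *Lcp65Ae* among them each time. Without Myc 1 calls rose over all genes too, to 10.7% higher and 8.67% lower, and without both to 10.7% and 8.56%, so these counts of cuticle genes among 73 and 72 tested are near the background.

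*Cpr97Ea* and *Cpr97Eb*, a pair at 97E, varied widely between libraries of a genotype. *Cpr97Eb* stood at 58.2, 27.4 and 40.1 CPM in the hop libraries, 55.2, 20.7 and 19.6 CPM in the Myc libraries and 40.1, 23.3 and 29.8 CPM in the gfp libraries. *Cpr97Ea* stood at 37.9, 22.6 and 30.8 CPM in the hop libraries, 40.9, 17.5 and 12.6 CPM in the Myc libraries and 25.4, 18.2 and 22.1 CPM in the gfp libraries. In each genotype the library numbered 1 was the highest for both genes, and all groups overlapped.

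By position, 71 of the 92 genes found in the annotation stood in 14 clusters of neighbors no more than 20 kb apart, and 21 stood alone. The clusters are named here after the cytological band in their symbols. The largest is 65A, with 18 genes on arm 3L (bases 6130386 to 6161589), 11 of which were tested. In hop against gfp all 11 tested genes of 65A had log2 fold changes below 0, with a median of -1.56 and a range of -3.30 to -0.70. The groups did not overlap for 8 of them, *Lcp65Ag3*, *Cpr65Au*, *Lcp65Ae*, *Cpr65Av*, *Cpr65Aw*, *Lcp65Ad*, *Lcp65Ac* and *Lcp65Aa*, and the overlapping ones were *Acp65Aa*, *Cpr65Ay* and *Cpr65Az*. *Lcp65Ad* for instance had 9, 3 and 0 counts in the hop libraries, 14, 9 and 15 in the Myc libraries and 15, 17 and 18 in the gfp libraries. Over all tested genes 16.5% lay wholly below in this comparison, and 20.7% of those of 1 to 10 CPM. Genes this low may have passed the filter through their gfp or Myc counts, so the count of 8 describes only genes that passed. *Acp65Aa* had 3, 8 and 6 counts in the hop libraries, 3, 7 and 15 in the Myc libraries and 7, 19 and 26 in the gfp libraries. Apart from *Lcp65Ae* and *Cpr65Aw*, none of the 11 passed the test, and *Lcp65Ac* came nearest with -1.94 (adjusted p = 0.0658). The 7 untested genes of 65A had few or no counts in any genotype, with at most 14 in a library.

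The reads of the whole 65A array, tested or not, were lowest in the hop libraries. Their sum was 15.6, 17.8 and 13.1 CPM in the hop libraries, 19.5, 31.2 and 43.8 CPM in the Myc libraries and 40.6, 37.9 and 43.8 CPM in the gfp libraries. All hop sums lay below all others, and the lowest of the Myc sums belonged to Myc 1, the library that stood towards hop on the first principal component. The mean sum of hop was 0.381 times that of gfp, and that of Myc was 0.773 times that of gfp. In Myc against gfp the median of the 11 genes was -0.47, with 10 below 0 and none called, and in hop against Myc it was -1.09, with all 11 below 0 and none called. Exons of *Lcp65Ag3* and *Cpr65Au* overlap the antisense gene *asRNA:CR46005*, and since the strand setting of the counting is not known, their reads may belong to either.

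The 47E array holds 7 genes on arm 2R (bases 11251751 to 11278445), 6 of them tested. All 6 had log2 fold changes below 0 in hop against gfp, with a median of -1.10. *Cpr47Eb*, *Cpr47Ec* and *Cpr47Ee* did not overlap between hop and gfp, and *Cpr47Ea*, *Cpr47Ef* and *Cpr47Eg* did. Wholly below in this comparison were 16.5% of all tested genes and 20.7% of those of 1 to 10 CPM, and the limit set by the filter applies here too. The untested *Cpr47Ed* had 6, 2 and 1 counts in the hop libraries, 3, 2 and 9 in the Myc libraries and 20, 10 and 7 in the gfp libraries. The sum of 47E was 20.1, 14.5 and 8.24 CPM in the hop libraries, 17.2, 19.2 and 28.7 CPM in the Myc libraries and 37.1, 30.9 and 30.3 CPM in the gfp libraries. Hop and Myc sums overlapped, and both lay below the gfp sums. In Myc against gfp the median of the 6 genes was -0.52, with all 6 below 0 and none called.

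**Figure D3:**
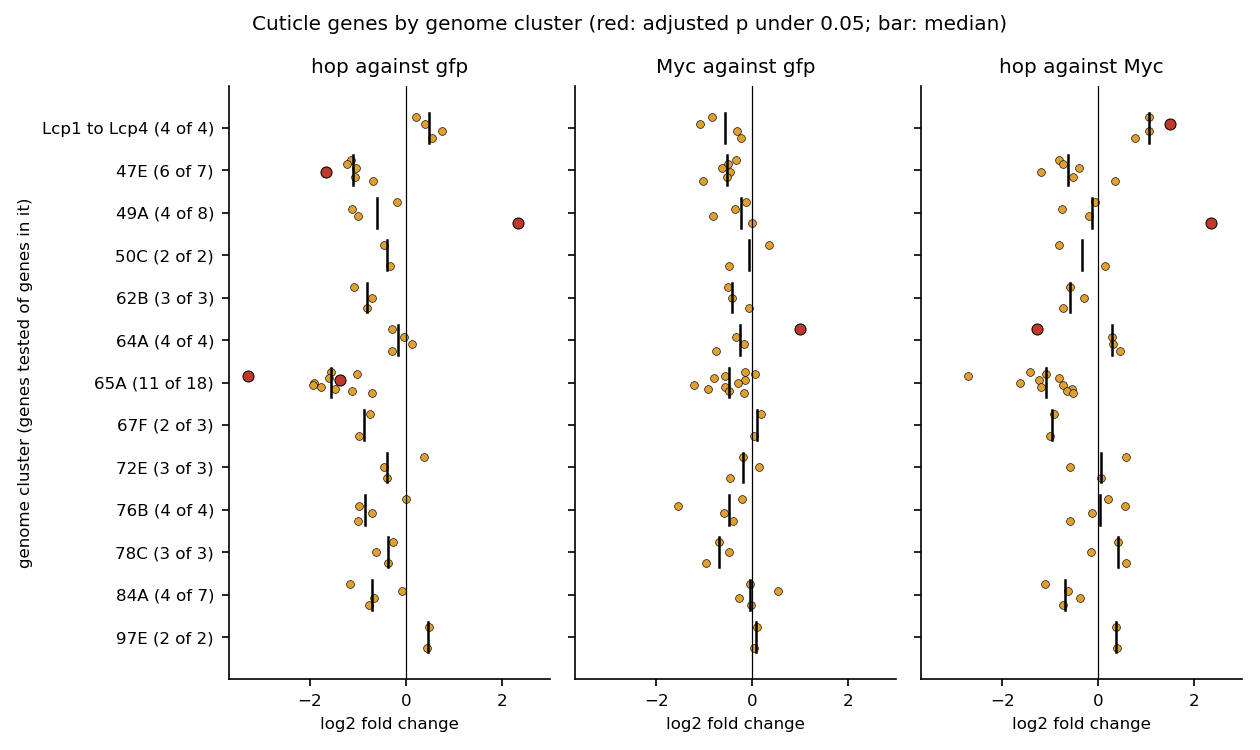
Log2 fold changes of the tested cuticle genes in 13 genome clusters (listed down the page, with the number of genes tested of all genes in the cluster) in the 3 comparisons, red at an adjusted p under 0.05, with the median as a bar. In hop against gfp all genes of 65A and 47E lie below 0, while *Cpr49Ah* of 49A stands alone at 2.35. In Myc against gfp *Cpr64Aa* of 64A stands alone at 0.99.

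The 49A array, 8 genes on arm 2R (bases 12376626 to 12415170), held the gene that rose and others that did not. Next to *Cpr49Ah*, *Cpr49Ae* had 24, 18 and 18 counts in the hop libraries, 41, 23 and 37 in the Myc libraries and 36, 42 and 63 in the gfp libraries. Its hop libraries lay below its gfp libraries, with a log2 fold change of -1.12 ± 0.34 (adjusted p = 0.0614). *Cpr49Af* had one of -1.0 (adjusted p = 0.279) and *Cpr49Ac* one of -0.19 (adjusted p = 0.717). *Cpr49Aa*, *Cpr49Ab*, *Cpr49Ad* and *Cpr49Ag* were not tested, with at most 24 counts in a library. The sum of 49A was 91.5, 94.7 and 94.4 CPM in the hop libraries, 43.1, 52.7 and 40.7 CPM in the Myc libraries and 42.8, 54.1 and 54.7 CPM in the gfp libraries.

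*Lcp1*, *Lcp2*, *Lcp3* and *Lcp4*, larval cuticle genes side by side on arm 2R (bases 8430115 to 8438495), all had log2 fold changes above 0 in hop against gfp (0.22 to 0.75, none called) and below 0 in Myc against gfp (-1.08 to -0.23, none called). In hop against Myc all 4 were above 0 (0.77 to 1.49), with *Lcp2* called. Their sum was 31.8, 17.3 and 17.2 CPM in the hop libraries, 12.2, 7.38 and 9.45 CPM in the Myc libraries and 19.9, 16.8 and 12.3 CPM in the gfp libraries. All hop sums lay above all Myc sums, hop and gfp overlapped, and the highest value belonged to hop 1. The 64A array summed to 64.3, 35.3 and 41.4 CPM in the hop libraries, 64.5, 53.8 and 84.8 CPM in the Myc libraries and 58.7, 45.3 and 51.6 CPM in the gfp libraries, which overlapped in each pair of genotypes.

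Among the other clusters no gene was called in any comparison. The 3 genes of 62B, *Cpr62Bc* among them, summed to 19.9, 20.5 and 9.99 CPM in the hop libraries, 17.0, 25.1 and 32.4 CPM in the Myc libraries and 32.6, 34.0 and 26.3 CPM in the gfp libraries, with hop below gfp throughout. *Cpr62Bc* itself stood at 6.14, 6.18 and 6.13 CPM in the hop libraries, 6.61, 12 and 12.4 CPM in the Myc libraries and 11.2, 13.0 and 8.30 CPM in the gfp libraries, with a log2 fold change of hop against gfp of -0.81 ± 0.31 (adjusted p = 0.121). The 78C genes summed to 34.8, 29.0 and 26.1 CPM in the hop libraries, 21.8, 34.4 and 31.0 CPM in the Myc libraries and 47, 40.3 and 41.6 CPM in the gfp libraries, with both supercompetitor groups below gfp. The 72E genes, at 11.6 to 13.8 CPM in the hop libraries, 11.1 to 13.5 CPM in the Myc libraries and 11.3 to 16 CPM in the gfp libraries, overlapped in all groups. The 84A genes summed to 5.30 to 7.81 CPM in the hop libraries, 5.18 to 12.7 CPM in the Myc libraries and 7.55 to 14.9 CPM in the gfp libraries.

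**Figure D4:**
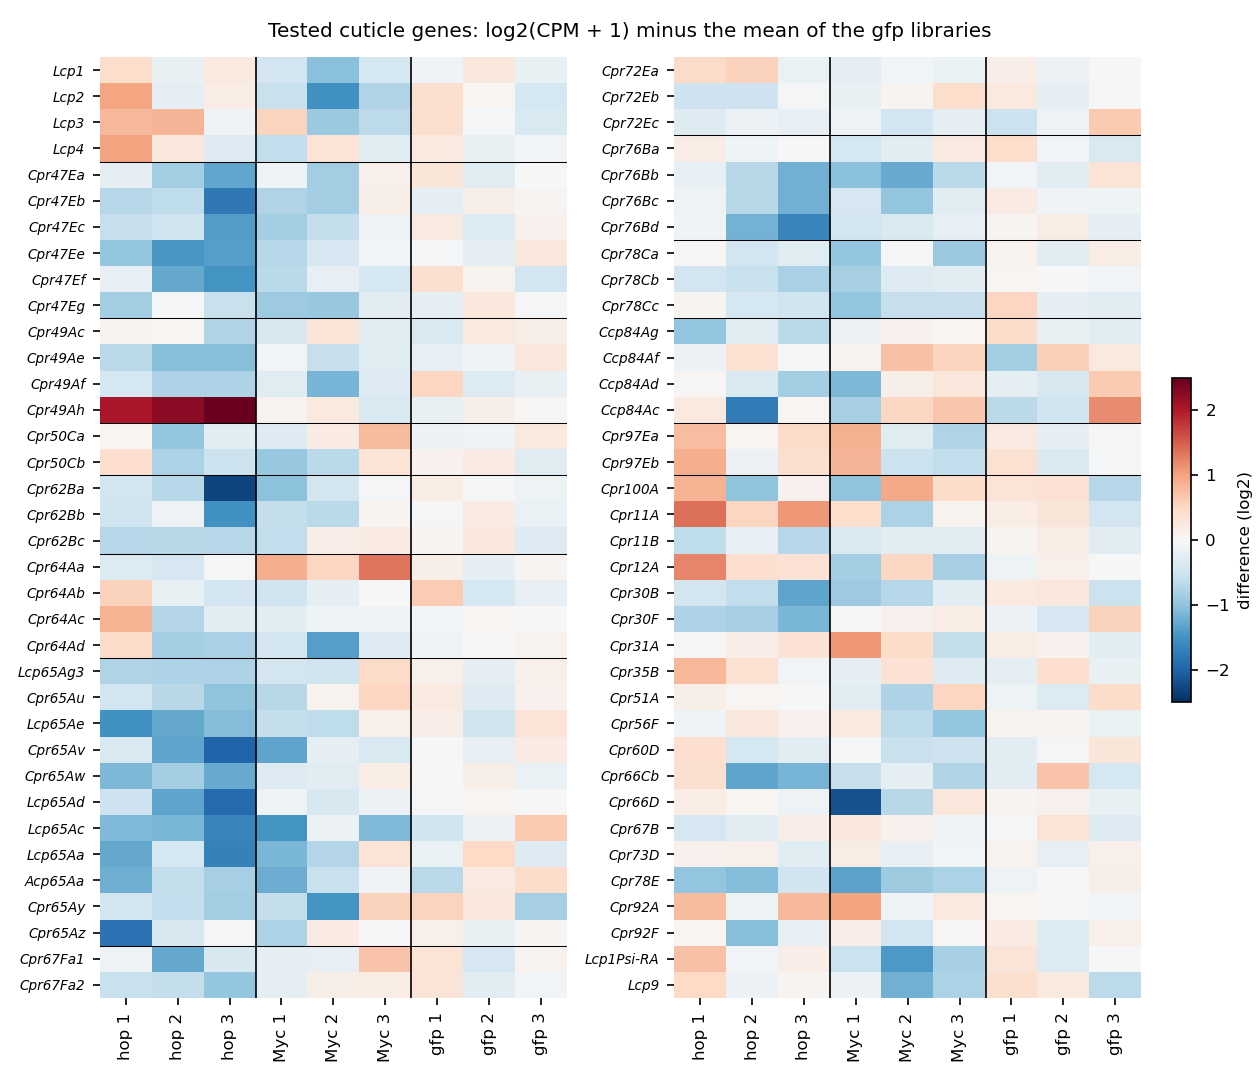
Log2(CPM + 1) of the 72 tested cuticle genes in each library (columns, 3 per genotype) minus the mean of the gfp libraries, ordered by genome cluster (horizontal lines), with genes outside clusters last. The hop columns are mostly blue in 47E and 65A and red in *Cpr49Ah*, and hop 1 and Myc 1 are red in *Cpr97Ea* and *Cpr97Eb*.

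Summed over all 93 genes, the family was lower in every Myc library than in any gfp library, while the hop libraries overlapped both. The sum was 601.6, 433.4 and 449.4 CPM in the hop libraries, 460.3, 412.0 and 487.1 CPM in the Myc libraries and 544.0, 493.7 and 504.7 CPM in the gfp libraries. The hop sums lay on both sides of the gfp sums, with hop 1 the highest of all libraries. Without *Cpr49Ah* the hop libraries summed to 546.6, 369.8 and 374.8 CPM and the gfp libraries to 533.0, 479.7 and 491.8 CPM. The 63 tested genes under 10 CPM summed to 311.2, 208.0 and 195.5 CPM in the hop libraries, 223.0, 241.4 and 289.0 CPM in the Myc libraries and 342.8, 318.5 and 313.7 CPM in the gfp libraries, so that every hop and Myc library lay below every gfp library. The limit set by the filter applies here too, so these sums describe only genes that passed it. Among all 5407 tested genes of 1 to 10 CPM, 62.5% had a log2 fold change below 0 in hop against gfp and 60.0% in Myc against gfp.

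**Figure D5:**
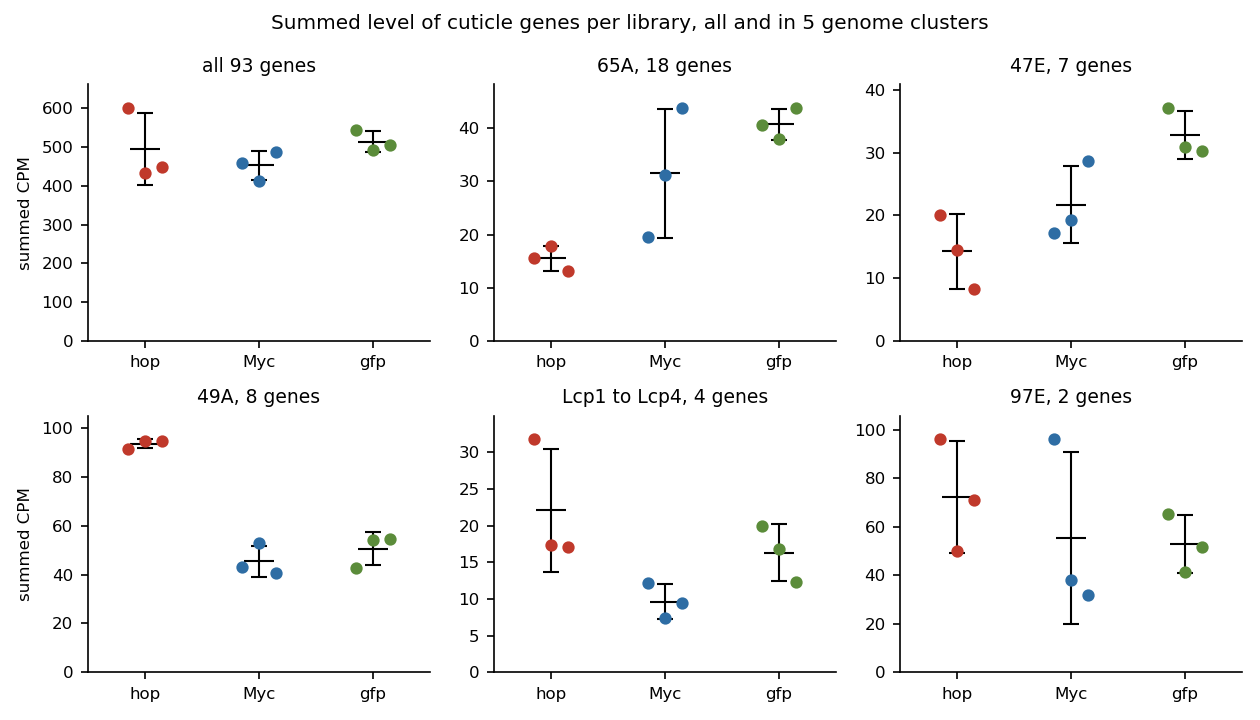
Summed CPM per library (points) with mean and SD per genotype (bars) for all 93 genes and for 5 genome clusters, each y axis starting at 0. The hop libraries are lowest in 65A (13.1 to 17.8 CPM) and highest in 49A (91.5 to 94.7 CPM), while the sums of all genes overlap between hop and gfp.

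Genes that act with cuticle proteins were counted from lists of related functions. For comparison, 3.16% of all tested genes were called higher and 3.37% lower in hop against gfp. The shares were 2.35% and 0.502% in Myc against gfp, and 3.35% and 3.19% in hop against Myc. They apply to all lists below as well. Of 16 tested genes listed for chitin synthesis and deacetylation 5 rose and none fell in hop against gfp. The genes that rose were *verm* and *serp*, which encode chitin deacetylases, *kkv*, the chitin synthase of the epidermis, *knk* and *Cda5*. The list also holds *Alas*, which encodes an enzyme of heme synthesis and was not called. *knk* shares 1712 exon bases with *asRNA:CR46038*, so its reads may belong to either. *verm* averaged 439.6 CPM in hop libraries and 226.8 CPM in gfp libraries (log2 fold change 0.95, adjusted p = 0.000108), *serp* averaged 178.5 CPM in hop and 90.3 CPM in gfp (0.98, adjusted p = 0.000968), and *kkv* 297.8 CPM in hop and 178.4 CPM in gfp (0.74, adjusted p = 0.00274). None of the 16 was called in Myc against gfp, and 5 were higher in hop than in Myc. The median of the list was 0.18 in hop against gfp and -0.01 in Myc against gfp. Of 17 tested chitinases and related proteins 1, *Idgf4*, rose in hop against gfp (1.53, adjusted p = 0.00533), none was called in Myc against gfp and 3 were higher in hop than in Myc.

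Proteins of other cuticle and apical matrix families gave calls in both supercompetitor groups. Among 10 tested genes of chitin-binding proteins of the peritrophin type, *Gasp* (1.0, adjusted p = 0.0061) and *Peritrophin-A* (1.12, adjusted p = 0.0328) rose in hop against gfp, *obst-A* fell in Myc against gfp (-0.59, adjusted p = 0.0263), and 3 were higher in hop than in Myc. The list median was -0.13 in hop against gfp and -0.13 in Myc against gfp. Among 13 tested genes of a list of apical matrix proteins with a zona pellucida domain, *dp* (0.85, adjusted p = 0.0132), which encodes Dumpy, and *tyn* (0.56, adjusted p = 0.0192) rose in hop against gfp, none was called in Myc against gfp, and 3 were higher in hop than in Myc. The list also holds *f*, which encodes an actin-bundling protein without that domain. The medians of this list were 0.33 in hop against gfp and -0.26 in Myc against gfp. *tyn* shares 1020 exon bases with *CG17707*, *RhoGAP1A* and *lncRNA:CR45473*, so some of its reads may belong to them. Of 17 tested genes of tanning and pigment 3 rose in hop against gfp, *Ddc* (0.97, adjusted p = 0.0279), which encodes dopa decarboxylase, *yellow-e* and *yellow-e2*. *laccase2* (-0.83, adjusted p = 0.0029), which encodes a phenoloxidase of tanning, and *t* (-1.13, adjusted p = 0.0275) fell in Myc against gfp, and 4 genes were higher in hop than in Myc. The tanning list had medians of -0.23 in hop against gfp and -0.36 in Myc against gfp. In the peritrophin, zona pellucida and tanning lists some uncalled members lay wholly above gfp in hop and others wholly below. Of 5 CPR-type cuticle genes with other symbols 3 were tested and none was called, with medians of -0.95 in hop against gfp and -0.60 in Myc against gfp. These 3 genes (named after their values were seen) did not share a direction. *Edg78E* and *Edg84A* were below 0 in both comparisons. *Pcp* was above 0, at 1.36 in hop against gfp (adjusted p = 0.169) and 1.68 in Myc against gfp (adjusted p = 0.178). Some genes of these lists also stand in the lists of cell type markers below.

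Genes timed by ecdysone, the steroid hormone of molting, were read beside the family because cuticle genes are switched on and off with its pulses. Of 20 tested genes 3 rose in hop against gfp, *Hr38* (1.35, adjusted p = 0.000752), *ftz-f1* (0.85, adjusted p = 0.0299) and *Eip75B* (0.39, adjusted p = 0.0392), all of which encode nuclear receptors. *ftz-f1* shares 2521 exon bases with *lncRNA:CR45939*, so its reads may belong to either. *Eip78C* (-0.66, adjusted p = 0.0445) and *ImpE3* (-0.95, adjusted p = 0.0443) fell in Myc against gfp, and 5 genes were higher in hop than in Myc. The list median was 0.03 in hop against gfp and -0.20 in Myc against gfp. Some uncalled members lay wholly above gfp in hop and others wholly below. The study examined genes of this hormone in these libraries, so the list is not independent evidence of its direction.

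Markers of other cells that a wing disc can hold moved with the genotypes in part. For tracheal cells 3 of 11 tested markers were higher in hop than in gfp, *verm*, *serp* and *Gasp*, which the epidermis also expresses, while *trh*, the master regulator of tracheal fate (named after its values were seen), was at 90.01 CPM in hop and 86.0 CPM in gfp (adjusted p = 0.863). The summed level of the tracheal list was 1470 to 1600 CPM in hop, 987 to 1050 CPM in Myc and 1080 to 1140 CPM in gfp. For hemocytes *Hml* was higher in hop than in gfp and *Pxn*, *Ppn* and *Cg25C* were lower, of 8 tested, with sums of 527 to 647 CPM in hop, 635 to 839 CPM in Myc and 838 to 978 CPM in gfp. For adult muscle precursors *Mef2* was higher and *zfh1* lower in hop than in gfp and *kon* lower in Myc than in gfp, of 8 tested, with sums of 388 to 432 CPM in hop, 326 to 386 CPM in Myc and 378 to 471 CPM in gfp. None of 6 tested fat body markers and none of 5 neuron markers was called against gfp. The fat body list summed to at least 108 CPM in each hop library, against 59.3 to 76.8 CPM in Myc and 78.4 to 96.2 CPM in gfp, and the neuron list to 634 to 1030 CPM in hop, 457 to 780 CPM in Myc and 629 to 821 CPM in gfp. Of 9 wing disc markers *ci* was called higher in hop than in gfp (0.43, adjusted p = 0.0337), and the list summed to 3580 to 4410 CPM in hop, 3320 to 3420 CPM in Myc and 3380 to 3620 CPM in gfp. No marker in the table was at 0 in all libraries. The part of other cell types in the levels of cuticle genes was not tested.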

How the data were processed

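RNA of sorted wing disc cells was sequenced from 3 libraries each of hop, Myc and gfp. Raw counts per gene were made and deposited by the authors, who named bcl2fastq, STAR, Picard, HTSeq and DESeq2 in their processing notes, with dm6 and BDGP6. For the versions, the release of the annotation and the strandedness of counting, nothing is stated by the labels, files or methods used here. The second deposited table holds signal values that the authors made by dividing counts by size factors, and 100% of its values fell within 0.02 of a whole read. The columns of both tables were mapped to samples by name. The labels name polyA RNA and the published methods total RNA, which was not resolved. The methods mention sequencing pools that could not be assigned to libraries, so pool was not modelled.

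Counts were tested with edgeR 4.0.16 in R 4.3.3 (quasi-likelihood, robust, TMM, filterByExpr, 9 libraries, 6 residual degrees of freedom), with Benjamini-Hochberg adjustment over all 12741 genes tested and calls at an adjusted p under 0.05. CPM is TMM-scaled. SE is that of the log2 fold change. The principal component used the 500 most variable genes. Counts were also simulated with 200 genes changed in hop, and 12454 genes passed the filter. Of the changed genes that passed it, the test of hop against gfp recovered 5 of 64 at 1.5-fold, 22 of 63 at 2-fold and 53 of 63 at 4-fold. It called 4 unchanged genes. Changed genes that did not pass the filter are not in these counts. Gene positions come from BDGP6, and neighbors up to 20 kb apart formed a cluster.

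Named were all called members, the 12 members with the highest mean CPM and the members of clusters that hold a called one, and in other lists up to 4 called genes of smallest p (for chitin synthesis *knk* was added after its values were seen) and, for cell types, up to 3 of highest CPM. Members and lists were chosen with earlier results of these data known. Alternatives were RLE and upper quartile normalization, other filters, a 1.5-fold minimum, DESeq2 1.42.0, limma-voom (limma 3.58.1), the 6 libraries compared, the replicate block, a gap of 50 kb and each library left out. Chosen after seeing the data were edgeR without robust estimation, reads recovered from the normalized table, and Myc 1 and gfp 1 left out together. Classes of the chitin-binding consensus were not analysed here, and no sequence is printed.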

Additional observations from a re-analysis of the deposited data

Results flagged for a closer look

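In 4 cuticle genes the effects of *hop* and *Myc* differed, by the direct test of hop against Myc. The log2 fold change of hop against Myc was 2.35 for *Cpr49Ah*, where hop against gfp was 2.35 and Myc against gfp -0.01. It was -1.27 for *Cpr64Aa*, where hop against gfp was -0.28 and Myc against gfp 0.99. It was 1.49 for *Lcp2* and 1.39 for *Lcp1Psi-RA*, whose reads may not be separable from each other. The normalized table also listed *Lcp65APsi*, a pseudogene of the 65A array that the raw counts do not list. Its recovered reads were 6, 8 and 10 in the Myc libraries, 24 in all, and 1, 2 and 2 in the hop libraries, with 0 in each gfp library.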

How the results depend on the processing

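No result changed direction under any alternative. The cuticle genes called higher in hop against gfp came to 2 in place of 1 with no filter on low counts, with DESeq2, with only the 6 libraries compared, with the replicate block and without Myc 1 and gfp 1 together, and to 1 to 2 with each library left out. *Cpr11A* was the gene added. The genes called lower came to 5 in place of 3 with the 6 libraries, the block and without Myc 1 and gfp 1, to 2 with limma-voom, with no filter and under the minimum of 10 counts, and to 0 to 7 with each library left out. *Cpr65Aw* lost its call with no filter and with limma-voom (adjusted p = 0.0535 and 0.0572), and DESeq2 called *Lcp65Ac* and gave *Lcp65Ae* no adjusted p. In Myc against gfp the count called higher was 0 to 1 with each library left out, and that called lower was 0 throughout. In hop against Myc the count called higher came to 1 in place of 3 with limma-voom, with the 6 libraries and with recovered reads, to 7 without Myc 1 and gfp 1, and to 1 to 7 with each library left out. The count called lower came to 3 in place of 1 with at least 10 counts in every library, to 2 with DESeq2 and the block, to 5 without Myc 1 and gfp 1, and to 1 to 6 with each library left out. The cause of these shifts was not tested.

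Correlations of same-numbered libraries ran from -0.14 to 0.392 and were highest for Myc 1 with gfp 1. Whether the replicate numbers pair the samples was not resolved. With the replicate block hop against gfp had 2 genes higher and 5 lower, and hop against Myc 4 higher, with *Cpr11A* added, and 2 lower. Over all genes the block raised the calls in hop against gfp to 914 higher and 778 lower, in place of 402 and 429.

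Calls of *Cpr49Ah*, and of *Cpr64Aa* in hop against Myc, held in every alternative run. Most members lie under 10 CPM. On simulated counts 22 of the 63 genes changed 2-fold that passed the filter were recovered over all levels, and recovery by level was not tested.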
